A study of Mus musculus with 6 samples.

Results

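The 45 genes described here are known imprinted genes of the mouse, genes that in at least some tissues are transcribed mainly from the allele inherited from a single parent. They were taken by symbol from the 24975 genes of a raw count table, and all 45 symbols were found. By general knowledge of the mouse, 22 are expressed from the maternal allele, 22 from the paternal allele, and Gnas makes different transcripts from either allele. The reads carry no parental information here, so these labels are background, and each value below is the sum of both alleles. The members were chosen with earlier results of these data known.

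RNA was sequenced from Mesp1-Cre-labelled mesoderm of mouse embryos at embryonic day 7.5, when the mesoderm is leaving the primitive streak. The control embryos were Mesp1-Cre/+;R26-tdTomato/+. The other embryos were Mesp1-Cre/+;R26-Gli3R-IRES-Venus/+ and made Gli3R, the repressor form of the transcription factor Gli3, which blocks the transcription of Hedgehog target genes. Each group had 3 libraries, each of 1000 sorted cells from pooled littermates, and each of 3 litters gave 1 library to each group. Both groups carry 1 Mesp1-Cre allele, which recombines in the early mesoderm and its descendants, and 1 allele inserted at R26. The fluorescent protein differs between the groups (tdTomato or Venus), so a difference made by Gli3R and a difference made by the reporter or by its sort cannot be told apart. In pooled cells, fewer cells of a type and less RNA per cell cannot be told apart either.

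Imprinting is set in the germ line by DNA methylation at control regions, and most imprinted genes lie in clusters in which a single control region governs several neighbours. A widely used generalisation holds that many paternally expressed genes promote growth of the embryo or placenta and many maternally expressed genes restrain it. Igf2, a fetal growth factor, and Igf2r, the receptor that clears it, are the classic pair. Many imprinted genes are active in mesoderm and in extraembryonic tissues, which makes early mesoderm a place where their total output can be read.

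Library totals ran from 5481190 to 12635151 counts, and levels are given in CPM, counts scaled to the library total. A single count was worth between 0.0775 and 0.185 CPM. A count of 0 allows a level of up to 3 counts, which is 0.232 to 0.555 CPM depending on the library. Gli3 itself was at 25.7, 29.5 and 34.3 CPM in control and 43.6, 38.9 and 50.8 CPM in Gli3R libraries. The groups did not overlap, but the change missed the threshold (log2 fold change 0.57 ± 0.15 SE, edgeR adjusted p = 0.312), and reads of the inserted and of the native gene are not told apart. All 15 mesoderm markers passed the filter on low counts, and 11 had a lower and 4 a higher mean with Gli3R in the fit. Of these 15, 0 were called, against 0.134% of all genes tested. Their summed level was 358 to 405 CPM in control and 390 to 442 CPM in Gli3R libraries. The primitive-streak gene T was at 22.6 ± 18.6 against 5.57 ± 2.3 CPM, Tbx6 at 7.495 ± 5.8 against 2.56 ± 1.8 CPM and Mesp1 at 16.4 ± 8.6 against 11.5 ± 2.6 CPM, while Hand1 (133 ± 16.6 against 180 ± 33.6 CPM) and Etv2 (62.1 ± 12.3 against 96.0 ± 12.5 CPM) had higher means with Gli3R. Summed markers of extraembryonic mesoderm reached 614 to 925 CPM in control and 843 to 1131 CPM in Gli3R, with 9 of 14 higher and Ahnak past the threshold. Summed epiblast markers ranged from 150.0 to 269 CPM in control and from 142 to 156 CPM in Gli3R. The part of these marker differences in the results below was not tested.

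The annotated start regions of Nnat, Peg3 and Ndn, the members with the smallest p between the groups, and of Blcap, whose intron holds Nnat, are printed. Counts per gene do not show whether the measured transcripts begin there. Each runs 5′ to 3′ on the gene's strand from 250 bases before to 50 bases after the RefSeq start in GRCm38.p6, and capitals mark each CG, the dinucleotide that is methylated at imprinted regions. The Nnat window is chr2:157559828-157560127 on the plus strand and the Blcap window chr2:157566312-157566611 on the minus strand. The Peg3 window is chr7:6730370-6730669 on the minus strand and the Ndn window chr7:62348027-62348326 on the plus strand.
Nnat: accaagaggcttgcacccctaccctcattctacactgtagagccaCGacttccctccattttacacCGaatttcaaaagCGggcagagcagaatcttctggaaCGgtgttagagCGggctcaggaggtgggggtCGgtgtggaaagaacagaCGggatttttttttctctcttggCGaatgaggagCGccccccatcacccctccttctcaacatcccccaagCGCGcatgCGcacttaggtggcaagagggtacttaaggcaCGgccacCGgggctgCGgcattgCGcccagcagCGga
Blcap: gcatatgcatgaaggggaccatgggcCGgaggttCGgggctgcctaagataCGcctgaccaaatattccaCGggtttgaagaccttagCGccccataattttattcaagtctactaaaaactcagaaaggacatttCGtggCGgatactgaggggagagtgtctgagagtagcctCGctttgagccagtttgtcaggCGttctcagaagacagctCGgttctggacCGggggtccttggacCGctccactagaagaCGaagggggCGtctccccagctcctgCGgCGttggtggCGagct
Peg3: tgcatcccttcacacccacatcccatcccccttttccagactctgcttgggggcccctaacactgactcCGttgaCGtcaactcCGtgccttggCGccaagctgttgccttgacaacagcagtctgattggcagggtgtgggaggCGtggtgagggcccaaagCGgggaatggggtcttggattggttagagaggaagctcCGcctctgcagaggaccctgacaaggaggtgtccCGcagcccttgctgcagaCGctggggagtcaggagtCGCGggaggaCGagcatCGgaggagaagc
Ndn: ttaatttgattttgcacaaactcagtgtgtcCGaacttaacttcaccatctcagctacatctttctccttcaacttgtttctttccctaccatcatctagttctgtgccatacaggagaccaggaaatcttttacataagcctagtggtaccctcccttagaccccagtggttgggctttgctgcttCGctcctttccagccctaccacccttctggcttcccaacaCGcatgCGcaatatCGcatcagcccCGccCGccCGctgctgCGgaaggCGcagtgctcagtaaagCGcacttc

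These 4 windows hold 17, 17, 13 and 11 CG dinucleotides. RefSeq windows were matched for 39 of the 45 members (56 windows), whose median was 15.5 CG, against 7 over all 32851 mouse windows. The Gli binding motif GACCACCCA, searched on both strands, was in 0 of the 56 windows and in 0.253% of all windows. Peg3 and Usp29 start close together on opposite strands, and their windows share 263 bases. After these sequences had been seen, a pair of further motifs was looked up on both strands. GCATGCGC, which is part of the binding motif of NRF1, was in the windows of Nnat and Ndn (2 of 56 windows, 3.57%, against 2.71% of all). TGACGTCA, the cyclic AMP response element, was in windows of Zdbf2, Peg3, Usp29 and Meg3 (4 of 56, 7.14%, against 1.79%). The Peg3 and Usp29 windows overlap and hold the same site, counted once for each. Both of these motifs hold a CG, and the shares over all windows were not matched for CG content. A match of letters is a description of the window and not a bound site.

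Imprinted genes made up 0.414% to 0.519% of all counts in a library. Of the 45 genes, 37 passed the filter on low counts and were tested, and 29 had a mean of at least 5 CPM. The 8 that did not pass were Kcnq1, Slc22a2, Slc22a3, Calcr, Dio3, Rtl1, Mkrn3 and Rasgrf1, with 5 to 51 counts each over the 6 libraries. Phlda2, Mest and Gnas alone held 57.9% to 61.7% of the members' counts in each library.

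Levels of different genes were compared per kilobase of the longest annotated transcript, which was known for 35 of the 37 tested members. In the control libraries Phlda2, a pleckstrin-homology protein that restrains placental growth, was highest at 1557 ± 311 CPM per kilobase (SD, n = 3) and ranked 32 of 10925 tested genes with a length. Mest, an enzyme of the alpha/beta-hydrolase fold whose silencing leaves embryos small, followed at 368 ± 120 CPM per kilobase. The control values of Phlda2 lay above those of Mest, and those of Mest above those of Gnas, without overlap. Next came Gnas, the stimulatory G-protein alpha subunit, at 102 ± 5.4, Snrpn, a small ribonucleoprotein of the spliceosome, at 99.1 ± 7.8, the tetraspanin Cd81 at 92.7 ± 12.2, the noncoding RNA H19 at 75.7 ± 19.5 and Nnat at 75.4 ± 9.4 CPM per kilobase, and from Gnas to Nnat each gene overlapped with the next in the order. Below them stood Mcts2 at 49.9 ± 3.8, Grb10 at 30.1 ± 3.7, Sgce at 26.7 ± 4.5 and Igf2 at 26.2 ± 1.2 CPM per kilobase, of which Grb10, Sgce and Igf2 overlapped. Of the 35 members, 21 lay above the median of all tested genes, 5.80 CPM per kilobase. The lowest tested members were Ppp1r9a, Usp29 and Zim1, at 0.366, 0.283 and 0.125 CPM per kilobase. The choice of transcript matters for some: with the shortest one, Igf2 would be at 190.6, Nnat at 199.7, Gnas at 282 and Dlk1 at 81.6 CPM per kilobase.

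**Figure D1:**
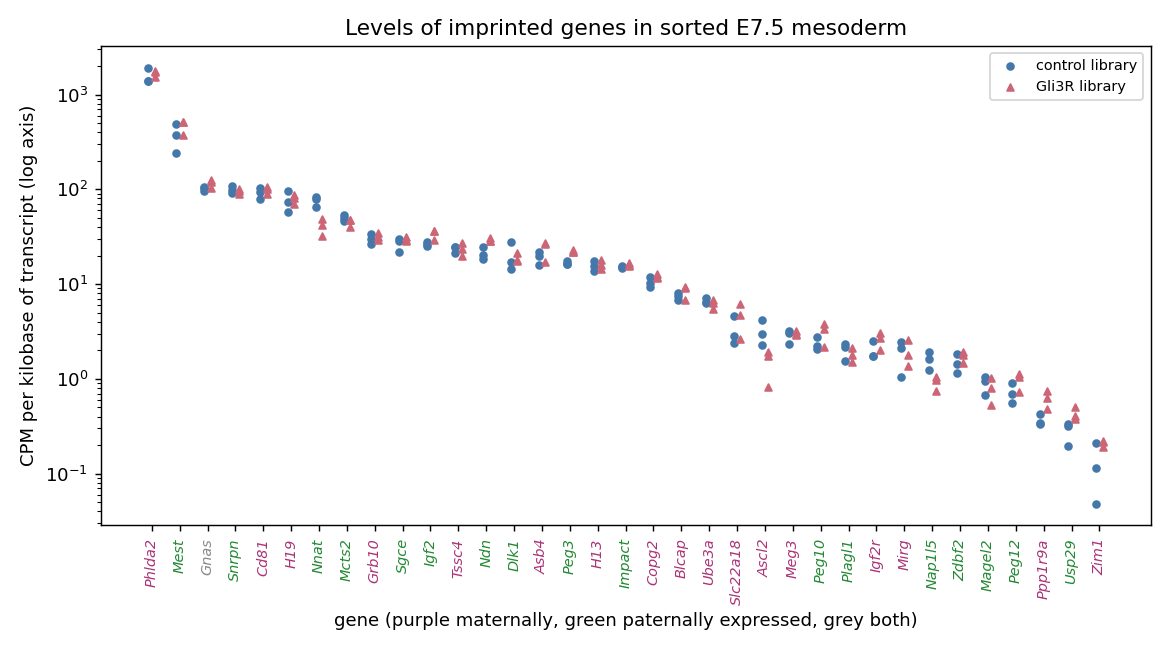
Level of each tested imprinted gene with a known transcript length, in CPM per kilobase on a log axis, in the order of the control mean, with 1 point per library. Phlda2 and Mest stand above all others, and for most genes the points of the 2 groups overlap. Nnat, Ascl2 and Nap1l5 are lower in every Gli3R library than in any control library. Igf2, Peg3, Usp29, Ndn, Impact and Ppp1r9a are higher.

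No imprinted gene was called different between Gli3R and control: 0 of 37 rose and 0 of 37 fell by edgeR's quasi-likelihood test at an adjusted p of 0.05. Over all 11913 genes tested 16 were called, 0.134%. At an unadjusted p under 0.05, 7 of the 37 members passed (18.9%: Nnat, Peg3, Ndn, Igf2, Ascl2, Ppp1r9a and Nap1l5), against 6.86% of all genes. The fit with the replicate block, that is with litter as a term, also called 0 of the 37, against 0.227% of all genes. In that paired fit 10 members passed an unadjusted p of 0.05 (27.0%, against 8.73% of all genes): the same 7 and Mest, Asb4 and Igf2r. DESeq2 fitted all 45 members and called 2, Nnat lower (adjusted p = 6.98e-05) and Peg3 higher (adjusted p = 0.0305), against 0.656% of genes with an adjusted p. The edgeR fit without a low-count filter, also over 45 members, called the same pair (adjusted p = 0.00119 and 0.0425), against 0.577% of genes. Over all alternatives the adjusted p ran from 6.98e-05 to 0.474 for Nnat and from 0.0305 to 0.69 for Peg3.

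Nnat, neuronatin, a small proteolipid of the endoplasmic reticulum made from the paternal allele, was at 100.2, 95.6 and 78.6 CPM in control and 51.4, 39.3 and 58.8 CPM in Gli3R (litters 1, 2 and 3, the order used for all genes below). Every Gli3R value lay below every control value, and the difference pointed down in all 3 litters. The log2 fold change was -0.88 ± 0.15 SE (edgeR adjusted p = 0.0887), between -1.0 and -0.73 when each library was left out in turn. Blcap, the host gene, makes a small membrane protein, and its main transcript is not imprinted in most tissues. It was at 15.9, 17.1 and 14.4 CPM in control and 14.3, 19.3 and 19.8 CPM in Gli3R (0.16 ± 0.17, edgeR adjusted p = 0.989). The groups of Blcap overlapped. The ratio of Nnat to Blcap counts within a library was 6.29, 5.60 and 5.45 in control and 3.60, 2.03 and 2.98 with Gli3R. In litter 3 both genes contributed to it, with a log2 difference of -0.41 for Nnat and 0.43 for Blcap.

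Peg3, a zinc-finger protein of the paternal allele, was at 153.9, 140.5 and 142.6 CPM in control and at 188.8, 187.5 and 200.3 CPM in Gli3R libraries. The groups did not overlap and Gli3R was higher in all 3 litters, with a log2 fold change of 0.40 ± 0.079 SE (edgeR adjusted p = 0.156). Usp29, a member of the ubiquitin-protease family that starts beside Peg3 on the opposite strand, was low, at 1.48, 2.40 and 2.53 CPM in control and 2.87, 3.07 and 3.83 CPM in Gli3R (0.55 ± 0.31, edgeR adjusted p = 0.864). Zim1, the maternally expressed zinc-finger neighbour, was at 0.370 to 1.63 CPM in control and 1.47 to 1.68 CPM in Gli3R, and the groups overlapped.

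In the Snrpn-Ube3a cluster, Ndn, a MAGE-family protein made from the paternal allele, was at 67.8, 74.9 and 91.4 CPM in control and 105.8, 112.4 and 105.3 CPM in Gli3R. Its groups did not overlap (0.46 ± 0.11, edgeR adjusted p = 0.268). Its paternally expressed neighbours gave other values. Snrpn was at 202.6, 191.4 and 223.3 CPM against 198.9, 186.7 and 206.6 CPM (-0.060 ± 0.087). Magel2, another MAGE protein, was at 3.15 to 4.81 CPM against 2.48 to 4.75 CPM, and Peg12 at 1.48 to 2.40 against 1.92 to 2.94 CPM. The ubiquitin ligase Ube3a, labelled maternally expressed although its allele use in these cells was not measured, was at 70.2, 62.4 and 64.4 CPM against 62.5, 67.5 and 54.4 CPM (-0.092 ± 0.11). All 4 of these overlapped between the groups, and none of the 5 genes passed the test.

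Igf2 was at 118.3, 123.7 and 129.7 CPM in control and 171.1, 136.3 and 171.6 CPM in Gli3R, without overlap (0.37 ± 0.10, edgeR adjusted p = 0.402). H19, the maternally expressed noncoding RNA that shares its enhancers, was at 130.9, 168.6 and 219.6 CPM against 158.4, 186.5 and 201.2 CPM (0.068 ± 0.17). The H19 groups overlapped and its sign turned when control replicate 1 (-0.091) or Gli3R replicate 3 (-0.0086) was left out. The ratio of H19 to Igf2 counts within a library was 1.11, 1.36 and 1.69 in control and 0.926, 1.37 and 1.17 in Gli3R, which overlap. Igf2r was at 15.6, 15.6 and 22.5 CPM in control and 17.8, 24.2 and 27.3 CPM in Gli3R, higher in each litter (0.35 ± 0.21, edgeR adjusted p = 0.882). With the replicate block its change was 0.37 ± 0.14 (edgeR adjusted p = 0.467). Grb10, a growth-restraining adaptor that binds insulin and IGF receptors, was at 133.1, 152.4 and 170.7 CPM against 146.2, 159.6 and 175.3 CPM (0.074 ± 0.11).

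**Figure D2:**
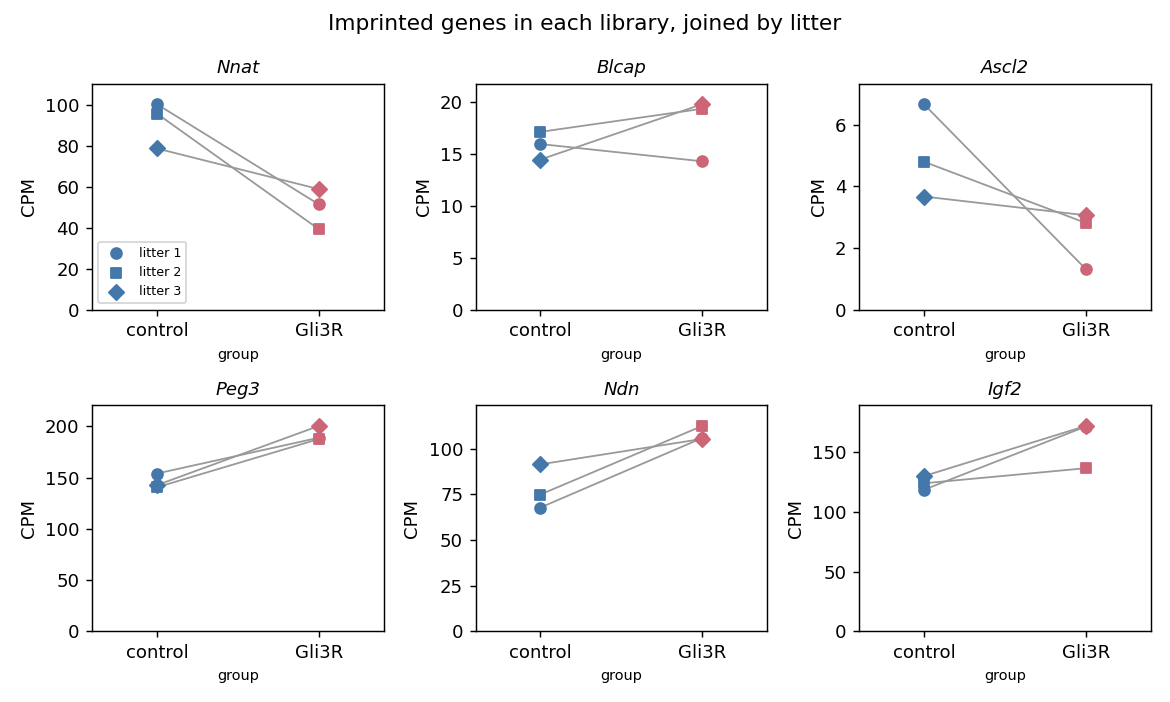
CPM of 6 imprinted genes in each library, with lines that join the control and the Gli3R library of a litter. Nnat and Ascl2 are lower and Peg3, Ndn and Igf2 higher in every Gli3R library than in any control library, while the Blcap groups overlap.

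Around Kcnq1ot1, the paternally expressed noncoding RNA of a large cluster on chromosome 7, the protein-coding members are labelled maternally expressed. Of these, Ascl2, Cd81 and Tssc4 are among the members imprinted only in some tissues. Kcnq1ot1 itself was at 34.4, 40.3 and 30.0 CPM in control and 40.5, 28.5 and 36.8 CPM in Gli3R (0.015 ± 0.16). Phlda2 was at 1451, 1043 and 1042 CPM against 1154, 1293 and 1337 CPM (0.099 ± 0.13), Cd81 at 122.2, 145.2 and 159.1 CPM against 135.5, 163.1 and 153.0 CPM (0.079 ± 0.11) and Tssc4 at 33.7, 29.0 and 33.5 CPM against 37.4, 26.7 and 32.3 CPM (0.012 ± 0.15). The groups overlapped for each of these, and for the transporter Slc22a18 (7.22, 4.42 and 3.67 CPM against 7.29, 4.09 and 9.65 CPM). Ascl2, a basic helix-loop-helix factor needed for trophoblast, was at 6.67, 4.80 and 3.67 CPM in control and 1.32, 2.81 and 3.06 CPM in Gli3R. Its groups did not overlap (-1.11 ± 0.37, edgeR adjusted p = 0.512), over only 174 counts in all. Summed trophoblast markers were at 23.3 to 27.5 CPM in control and 18.1 to 27.0 CPM in Gli3R, and Elf5, Tpbpa and Syna were at 0 in all 6 libraries.

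In the Dlk1-Dio3 cluster, Dlk1, a membrane protein of the Notch-ligand type, was at 78.9, 67.8 and 129.9 CPM in control and 81.1, 83.1 and 98.3 CPM in Gli3R (-0.078 ± 0.21). The maternally expressed noncoding RNAs of the cluster stood at like values in both groups: Meg3 at 44.2, 34.1 and 46.2 CPM against 41.9, 42.7 and 46.9 CPM and Rian at 8.15, 6.43 and 11.3 CPM against 9.69, 6.91 and 8.57 CPM. Mirg, at 1.34 to 3.16 CPM in control and 1.79 to 3.37 CPM in Gli3R, was lower still. The groups of all 4 overlapped. The untested Rtl1 and Dio3 had 51 and 9 counts.

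At the Peg10-Sgce cluster, the retrotransposon-derived Peg10 was at 18.5, 14.8 and 13.8 CPM in control and 22.5, 14.6 and 24.96 CPM in Gli3R (0.41 ± 0.21). Sgce, epsilon-sarcoglycan, was at 38.3, 50.5 and 53.5 CPM against 51.7, 50.9 and 55.6 CPM, and Asb4, an adaptor of ubiquitin ligases, at 52.4, 72.3 and 64.8 CPM against 55.8, 88.0 and 88.2 CPM. The groups overlapped for these 3 genes. Asb4 changed by 0.28 ± 0.18 without the replicate block and by 0.28 ± 0.098 with it (edgeR adjusted p = 0.923 and 0.449). Ppp1r9a, the actin-binding neurabin, was at 3.15, 4.03 and 3.29 CPM in control and 7.13, 4.60 and 5.97 CPM in Gli3R, without overlap (0.75 ± 0.26, edgeR adjusted p = 0.516).

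Mest was at 648, 1003 and 1288 CPM in control and 997, 1380 and 1360 CPM in Gli3R, higher in each litter but with overlapping groups (0.34 ± 0.22, edgeR adjusted p = 0.902). Its log2 fold change was 0.12 without control replicate 1 and 0.59 without control replicate 3. With all libraries and the replicate block it was 0.39 ± 0.11 (edgeR adjusted p = 0.303). Copg2, a coatomer subunit whose exons overlap those of Mest on the opposite strand, was at 37.0, 40.8 and 47.0 CPM against 47.5, 50.6 and 46.4 CPM (0.21 ± 0.12). Gnas was at 378, 408 and 420.1 CPM against 493, 408 and 466 CPM (0.18 ± 0.090). The retrogene Mcts2, which lies inside H13, was at 48.9, 45.7 and 42.0 CPM against 42.9, 36.3 and 42.9 CPM (-0.16 ± 0.12), and its host H13, a signal-peptide peptidase, at 72.2, 80.2 and 90.4 CPM against 75.4, 82.0 and 94.2 CPM (0.046 ± 0.12). These 5 genes overlapped between the groups.

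Among genes of small imprinted regions, Plagl1, a zinc-finger transcription factor, was at 8.15, 11.5 and 12.3 CPM in control and 11.2, 7.93 and 9.49 CPM in Gli3R. Zdbf2 was at 23.3, 18.2 and 14.7 CPM against 24.5, 22.4 and 18.4 CPM. Both overlapped between the groups. Impact, a regulator of the stress kinase Gcn2, was at 58.3, 55.5 and 57.6 CPM against 58.7, 63.1 and 59.4 CPM, which did not overlap although the fold change was small (0.080 ± 0.092). Nap1l5, a retrogene of the nucleosome-assembly family, was at 2.96, 3.55 and 2.28 CPM in control and 1.78, 1.92 and 1.38 CPM in Gli3R, without overlap (-0.78 ± 0.32, edgeR adjusted p = 0.694).

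Over the 37 tested members, the groups did not overlap with Gli3R higher in 6 (Igf2, Peg3, Usp29, Ndn, Impact and Ppp1r9a), which is 16.2% against 5.62% of all tested genes, and with Gli3R lower in 3 (Ascl2, Nnat and Nap1l5), 8.11% against 6.33%. Gli3R was higher in all 3 litters for 16 members, 43.2% against 15.0% of all genes, and lower in all 3 for 5, 13.5% against 15.3%. The maternally expressed members had a median log2 fold change of 0.080, with 15 of 18 above 0, and the paternally expressed members one of 0.11, with 11 of 18 above 0. By general knowledge 11 of the 22 maternally expressed members, among them Ascl2, Blcap, Copg2, Cd81, Tssc4 and Ppp1r9a, are imprinted only in some tissues. Without these the maternal median was 0.090, with 9 of 10 tested genes above 0. The median of all genes was -0.0079, with 48.2% above 0. By litter, the median log2 difference of the maternal members was 0.11, 0.15 and 0.048 and that of the paternal members 0.25, 0.029 and 0.066. Within 0.25 of 0 on the log2 scale lay 22 of 37 members (59.5%), a smaller share than the 75.3% of all genes. The paternally expressed members spread wider, with a median size of change of 0.29, than the maternally expressed ones, with 0.095, and the median size over all genes was 0.12; these are descriptions, and the difference between the 2 kinds of gene was not tested.

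**Figure D3:**
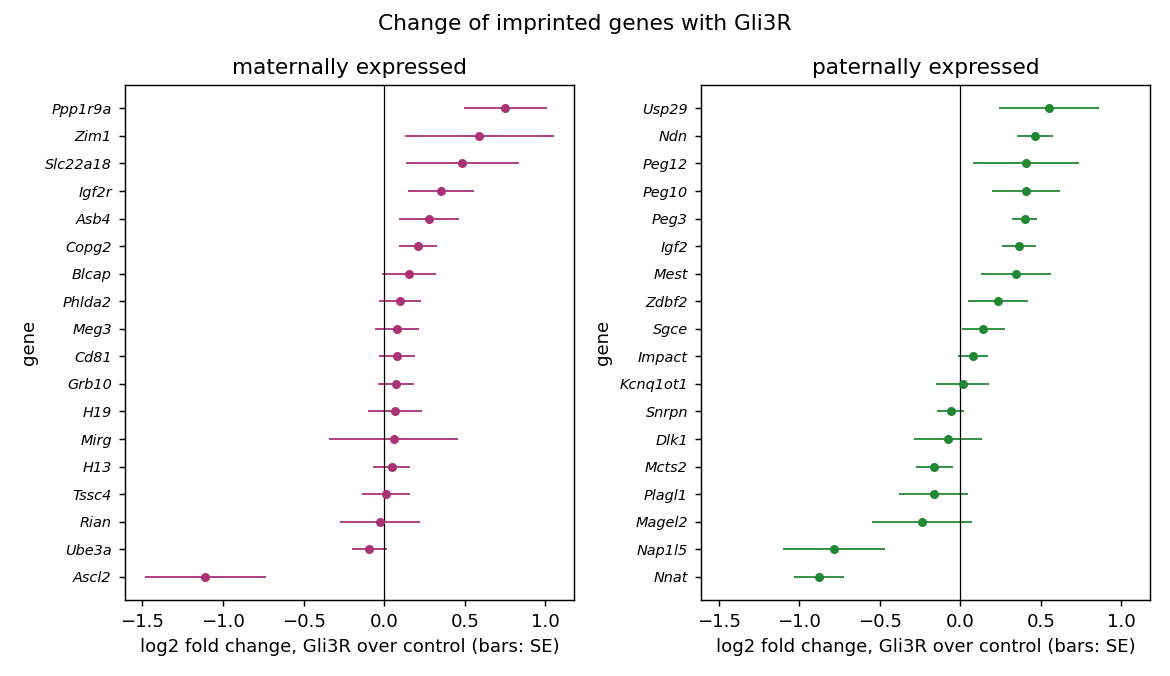
Log2 fold change of each tested imprinted gene, Gli3R over control, with its standard error, maternally expressed genes on the left and paternally expressed genes on the right. Most maternally expressed genes sit close to 0, and Ascl2, imprinted only in some tissues, lies lowest at -1.11. The paternally expressed genes run from -0.88 (Nnat) to 0.55 (Usp29).

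Several members varied between libraries of the same group. The SD within groups, on log2(CPM + 1), was above the median of genes of like level for 26 of the 37 members and more than 2 times that median for 5: Mest (4.50 times), Dlk1 (3.00), H19 (2.73), Asb4 (2.50) and Phlda2 (2.36). Genes of like level split evenly around that median by definition. Of them, 97.9% varied less than Mest, 96.2% less than Dlk1, 94.0% less than H19, 94.4% less than Asb4 and 90.8% less than Phlda2. The share of all genes above 2 times their median was not counted. Impact (0.356 times) and Peg3 (0.584 times) varied less than genes of their level.

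**Figure D4:**
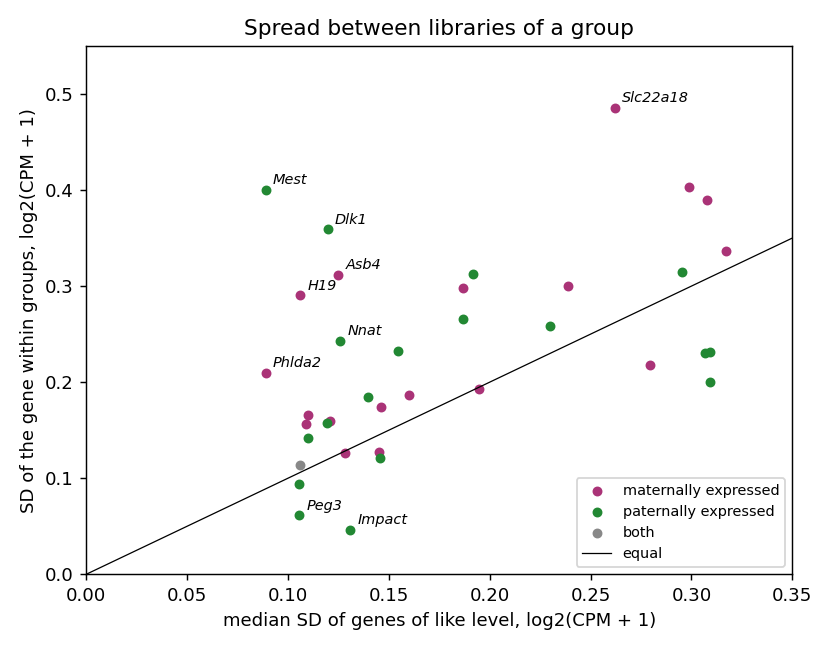
SD within groups of each tested imprinted gene on log2(CPM + 1), against the median SD of genes of like level, with the line of equality. Mest, Dlk1, H19, Asb4 and Phlda2 lie at more than 2 times the median of genes of like level, and Peg3 and Impact lie below the line.

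The same values were then compared by litter. Both libraries of litter 1 were the lowest of their group for 10 of 37 members, 27.0% against 16.6% of all tested genes. These were Mest, H19, Asb4, Grb10, H13, Cd81, Igf2r, Usp29, Zim1 and Magel2. The order of the litters was the same in both groups for 11 of 37 members, 29.7% against 21.4% of all tested genes. In the fit with litter as a term, the litter terms passed an unadjusted p of 0.05 for 9 members (24.3%, against 8.68% of all genes) and an adjusted p of 0.05 for 0 members (against 0.00839% of all genes). Mest had the smallest value (edgeR adjusted p = 0.288). Without a low-count filter 4 members passed it, Mest (edgeR adjusted p = 0.000166), Dlk1 (0.0191), H19 (0.0273) and Asb4 (0.0323), against 1.60% of genes. These litter comparisons were added after the values had been seen. Several marker lists were also lowest in litter 1 in both groups: extraembryonic mesoderm (614 CPM in control and 843 CPM in Gli3R), parietal endoderm (272 and 349 CPM), visceral endoderm (27.8 and 38.1 CPM), maternal decidua (34.99 and 49.5 CPM) and trophoblast (23.3 and 18.1 CPM). Summed epiblast markers were highest there (269 and 156 CPM). Primitive erythroid markers were not lowest in litter 1. They summed to 402.5, 464.6 and 209.6 CPM in control and 851, 244 and 223 CPM in Gli3R. The sums rest largely on a few genes, such as Sparc (224 ± 43.3 CPM in control) for parietal endoderm and Lrp2 (18.3 ± 7.6 CPM) for visceral endoderm. In the decidua list Cryab (15.6 ± 10.7 CPM) and Bmp2 (14.5 ± 4.1 CPM) led. Dnmt3b led the epiblast list (110.8 ± 21.9 CPM in control) and Hbb-bh1 the primitive erythroid list (250.7 ± 98.2 CPM). Means were under 1 CPM for 8 of 13 visceral endoderm, 3 of 9 decidua and 11 of 14 trophoblast markers. A sum therefore does not show that a cell type was present. The part of these lists in the litter pattern was not tested. All of these sums but those of trophoblast, epiblast and primitive erythroid markers were higher with Gli3R in every litter. In the fit, 4 of 7 tested parietal endoderm, 5 of 6 visceral endoderm and 5 of 6 decidua markers had a higher mean, with 0 called. So did 7 of 9 primitive erythroid markers, also with 0 called.

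**Figure D5:**
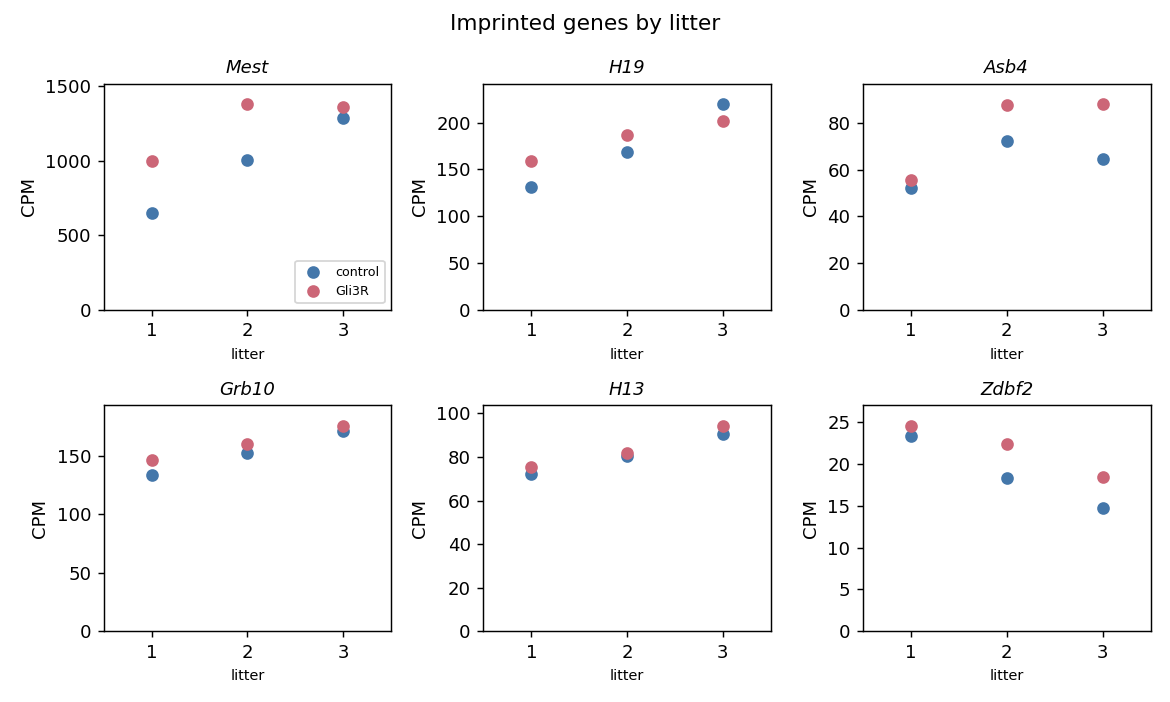
CPM of 6 imprinted genes by litter, with the control and the Gli3R library of each litter as points; the genes were picked for display after their values had been seen. Mest, H19, Asb4, Grb10 and H13 are lowest in litter 1 in both groups, and Zdbf2 is highest there.

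Among 37 further imprinted genes in the table, 24 were tested and 0 were called, against 0.134% of all genes. The fit with the replicate block called 1, against 0.227% of all genes. That gene was Cdkn1c (edgeR adjusted p = 0.0238 with the block, 0.338 without). Cdkn1c, the maternally expressed inhibitor of cyclin-dependent kinases from the Kcnq1ot1 cluster, was at 40.7, 61.6 and 70.1 CPM in control and 79.0, 96.4 and 136.4 CPM in Gli3R. It was higher with Gli3R in every litter and lowest in litter 1 and highest in litter 3 in both groups (0.84 ± 0.23). Smoc1 (13.2, 15.6 and 10.0 CPM against 9.77, 5.50 and 4.90 CPM) and Tspan32 (7.78, 6.91 and 3.54 CPM against 2.71, 4.48 and 1.53 CPM) missed the threshold, with edgeR adjusted p of 0.462 and 0.666. The most abundant, Slc38a4, an amino acid transporter, was at 293 ± 52.3 against 317 ± 37.4 CPM, and Nap1l4 (199 ± 7.1 against 194 ± 4.9 CPM) and Commd1 (197.5 ± 21.2 against 198.5 ± 5.6 CPM) stood at like levels in both groups.

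Of 30 genes that set, read or erase imprints and DNA methylation, 27 were tested and 0 were called, against 0.134% of all genes. Of the 27, 23 lay within 0.25 of 0 on the log2 scale (85.2%, against 75.3% of all genes). Trim28, the corepressor that protects imprints, was at 271 ± 26.5 against 270.7 ± 9.9 CPM. Ezh2, the methyltransferase of the Polycomb complex, was at 128.1, 134.9 and 124.9 CPM in control and 111.6, 112.4 and 102.9 CPM in Gli3R, without overlap (-0.25 ± 0.081, edgeR adjusted p = 0.501). Tet3, an oxidase of methylated cytosine, was at 8.60 ± 1.1 against 11.7 ± 0.58 CPM (edgeR adjusted p = 0.698) and Tet1 at 18.2 ± 0.71 against 22.0 ± 3.3 CPM (0.814). The heterochromatin protein Cbx5 (245 ± 12.1 against 257 ± 17.6 CPM) and Mbd3 (165 ± 2.0 against 175 ± 13.7 CPM) overlapped between the groups.

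Of 21 other genes of the insulin-like growth factor axis, 16 were tested and 0 were called, against 0.134% of all genes. Igf1, the sister ligand of Igf2, was low, at 0.555, 1.15 and 0.633 CPM in control and 2.17, 3.97 and 3.37 CPM in Gli3R, without overlap (1.89 ± 0.42, edgeR adjusted p = 0.195). The binding protein Igfbp2 was at 52.0, 58.5 and 97.8 CPM against 73.2, 111.3 and 155.9 CPM, higher in each litter (0.70 ± 0.29, edgeR adjusted p = 0.701, and 0.0502 with the replicate block). Foxo1, a transcription factor that insulin signalling inhibits, was at 5.55, 3.84 and 3.92 CPM against 1.63, 2.81 and 1.68 CPM (-1.11 ± 0.32, edgeR adjusted p = 0.415). Igfbp4 (164.5 ± 18.6 against 164.1 ± 9.4 CPM) and the RNA-binding protein Igf2bp3 (118 ± 10.9 against 116 ± 6.2 CPM) differed by less than the spread between libraries.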

How the data were processed

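The authors deposited raw counts per gene in 1 table, with Entrez gene IDs and symbols. Per the submitters' processing notes, the tools were TopHat2 2.0.14, featureCounts, Subread 1.4.6, FastQC and edgeR and the build was mm9, with no roles stated. Per the labels' protocols, cDNA came from the SMARTer Ultra Low kit and libraries from Nextera XT. Strand use in counting is not given in the sources used here. By GENCODE M21 exons of 21 of the 45 genes overlap another annotated gene (such as Mest and Copg2, Igf2 and Igf2os, or Snrpn and Snurf), so their counts are uncertain.

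Counts were filtered with filterByExpr of edgeR 4.0.16 (R 4.3.3, minimum count 10), which left 11913 of 24975 genes. They were scaled by TMM over full library totals and tested with edgeR's quasi-likelihood test, two-sided, without a litter term, with Benjamini-Hochberg adjustment over all genes at 0.05. CPM is TMM-scaled. Errors are SDs over 3 libraries and standard errors of log2 fold changes. Litter differences are log2 ratios of CPM + 1, with no test. Each replicate is a separate pool from a separate litter by the labels, and p-values measure the spread between these pools. Limits from counts cover counting error only.

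Replicate numbers pair the samples, since the labels give a number to each shared litter. The correlation of littermates' deviations from their group's mean was 0.168, 0.187 and 0.0755. Across litters it lay between -0.269 and 0.162. Alternatives were the litter block, other scalings, filters and DESeq2 1.42.0, and leaving out each library. The members, lists and tests were chosen with earlier results of these data known. Every member is accounted for; of the other lists, genes called, the 3 with the smallest p and the 3 with the highest level are named. The tests of litter and the counts by litter order were added after seeing the data. Lengths and promoter windows are from GRCm38.p6, while coordinates of the deposited build were not used.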

Additional observations from a re-analysis of the deposited data

How the results depend on the processing

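Of the 37 tested imprinted genes, 25 kept the sign of their change under every alternative in which they were fitted, and 12 changed it under at least one. Of the 25, 16 moved by over 1.5 times when some library was left out. With the replicate block the value of Tssc4 was -0.0058. Otherwise signs turned when 1 library was left out, with log2 fold changes from -0.091 to 0.28 for H19, -0.10 to 0.15 for Kcnq1ot1, -0.014 to 0.17 for Cd81, -0.12 to 0.13 for Tssc4, -0.0089 to 0.17 for Grb10, -0.26 to 0.26 for Dlk1, -0.044 to 0.17 for Meg3, -0.21 to 0.23 for Rian, -0.27 to 0.34 for Mirg, -0.11 to 0.0043 for Snrpn, -0.46 to 0.0082 for Magel2 and -0.043 to 0.13 for H13. The number of imprinted genes called went from 0 higher and 0 lower to 1 and 1 with DESeq2 and to 1 and 1 without a low-count filter, and stayed at 0 and 0 with each library left out. Imprinted genes that differed between litters went from 0 to 4 without a low-count filter, and the cause was not tested. The median of the maternally expressed genes lay between 0.044 and 0.20 with 1 library left out, and was highest without control replicate 3 (0.20), Gli3R replicate 1 (0.16) or control replicate 1 (0.14). That of the paternally expressed genes lay between 0.059 and 0.17. Over all genes, the 3 called higher became 9 with the replicate block, 5 with library size alone, 38 with DESeq2, 49 without a filter and 1 at 5 CPM or more in 3 libraries, and the 13 called lower became 49 with DESeq2 and 59 without a filter. With 1 library left out, 0 to 2 genes were higher and 0 to 16 lower. Without Gli3R replicate 3, 0 genes passed in edgeR, with 659 at an unadjusted p under 0.05. The replicate block changed no call of an imprinted member, and DESeq2's size factors moved no count by more than 1.5 times.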
